A study of Mus musculus with 45 samples.

Results

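The miR-183 cluster (miR-183-5p, miR-96-5p and miR-182-5p) and miR-375-3p were followed across the alveolar macrophage (AM) miRNome of mice exposed to filtered air (FA) or ozone (O3). The 4 members are the mature miRNAs mmu-mir-183-5p, mmu-mir-96-5p, mmu-mir-182-5p and mmu-mir-375-3p, of 476 miRNAs listed in any of the 6 deposited tables. They were chosen by name, with earlier results of these data known, and the only measured value that the choice used was the presence of their rows, which needs a nonzero value in several mice. The tables of SP-A2 males and females listed all 4 members, and the tables of co-ex and KO mice listed 3 and left out miR-96-5p. The levels and O3 differences of the members are therefore given as a description, and each p-value, adjusted over a whole table, sets a difference beside the spread between mice.

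The AM miRNA of 45 mice, 21 of them male and 24 female, all 12 weeks old, was sequenced 18 h after an exposure of 3 h to either FA or 2 ppm O3. The SP-A2 mice carried the human variant SP-A2 (1A0) and the co-ex mice carried both SP-A1/SP-A2 (6A2/1A0), each on a C57BL/6J background without mouse SP-A, and the KO mice had no SP-A. Thus all mice lacked the mouse SP-A gene, and no wild-type mice were among them. Of the 12 groups, those of SP-A2 males and that of co-ex males exposed to O3 had 3 mice and the others 4, which gave 23 FA mice and 22 O3 mice. Per the labels' protocol co-ex males numbered 3 per exposure, whereas 4 libraries were labelled as FA, and all 4 were used. The estrous cycle of the females had been synchronized. The AM were obtained by bronchoalveolar lavage, which can also hold other cells of the airspace. No SP-A transcript was measured here, so the genotypes rest on the labels, and the promoter of the transgenes is not given in the sources used here.

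A miRNA binds target messenger RNAs mainly through its seed, the stretch near the 5′ end that pairs with the target, and lowers their translation and stability. The cluster miRNAs are made from neighbouring hairpins and are best known from sensory cells of the ear and retina, and they are also expressed in epithelia. miR-375 comes from a hairpin of its own and is best known from pancreatic islets, where it limits insulin secretion, and from other secretory and neuroendocrine epithelia. None of the 4 is regarded as a marker of macrophages.

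The mature sequences show how close the cluster members are, and the capitals mark the seed, bases 2 to 8 from the 5′ end. They were taken from RefSeq (GRCm38.p6) and 3 of the 4 members were matched by name, mmu-mir-375-3p being named only.
mmu-mir-183-5p: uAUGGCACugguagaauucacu
mmu-mir-96-5p: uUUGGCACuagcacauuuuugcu
mmu-mir-182-5p: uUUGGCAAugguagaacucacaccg
The 3 sequences lie on the minus strand of chromosome 6, at chr6:30169711-30169732, chr6:30169506-30169528 and chr6:30165962-30165986. The seeds of miR-183-5p and miR-96-5p agree at 6 of 7 bases and differ by A2U, counted from the 5′ end of the mature miRNA. Those of miR-96-5p and miR-182-5p also agree at 6 of 7 bases and differ by C8A, while those of miR-183-5p and miR-182-5p agree at 5 of 7 and differ by both. Over their whole shared length, set side by side from the 5′ end without gaps, miR-183-5p and miR-182-5p are the closest pair, with 18 of 22 bases identical, against 13 of 22 for miR-183-5p and miR-96-5p and 12 of 23 for miR-96-5p and miR-182-5p. Each of the 3 has its own seed. The miRNA mmu-miR-1271-5p has the same seed as miR-96-5p and was in none of the tables.

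The hairpins Mir183 and Mir96 are separated by 116 bases, and Mir96 and Mir182 by 3453 bases, in the order Mir183, Mir96, Mir182 along the minus strand. Mir375 lies on the minus strand of chromosome 1, at chr1:74900658-74900721. In the GENCODE M21 annotation each of the 4 hairpins overlapped only its own miRNA gene. The other arm of the Mir183 hairpin, mmu-mir-183-3p, was listed in the tables of SP-A2 males and females, and no other arm of the 4 hairpins was listed in any table.

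The reads that fell on listed miRNAs in a mouse ranged from 137965 to 2884013 (median 766213). Of the 206 miRNAs listed in all 6 tables, the number at 0 in a mouse was between 0 and 72, with a median of 7. In 5 mice more than 20% of these miRNAs were at 0, namely co-ex male FA replicates 1 and 4, co-ex female FA replicate 4, KO female FA replicate 4 and KO male O3 replicate 4, and 4 of these 5 mice had been exposed to FA. The log2 differences, tests of levels and ratios of the members that rest on these mice are given with and without them. The cell label was set beside 7 miRNAs of macrophages and other leukocytes, among them miR-223-3p and miR-142a-3p. The highest of the 7 was miR-21a-5p in every table but that of co-ex males, where it was miR-146b-5p. All 7 were listed in all tables and together took between 0.986% and 24.5% of the reads of a mouse, with a median of 8.52%. In co-ex males and in KO females 4 of the 7 were at 0 in some mouse, against 2 in KO males and 1 in co-ex females. Erythroid miRNAs, of which miR-486b-5p was the highest in every table, took between 0.129% and 36.9%, with a median of 3.38%. The values of a table are reads divided by a factor of each mouse, called normalized values here. Levels between tables were set on recovered reads scaled by the total over the 206 shared miRNAs of each mouse (CPM).

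The members were of moderate to low abundance in AM. The median level over the mice was 858 CPM for miR-375-3p, 339 CPM for miR-182-5p and 332 CPM for miR-183-5p. In the 14 SP-A2 mice the median of miR-96-5p was 9.00 CPM, or 6.5 reads. By mean level within the tables miR-375-3p ranked between 62 and 89, miR-182-5p between 80 and 126, miR-183-5p between 92 and 140, and miR-96-5p at 278 and 337. Levels of different miRNAs also carry ligation and amplification bias, so this order describes the libraries.

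All 4 members together took between 0% and 0.627% of the reads, against 0.0975% to 2.14% for 11 miRNAs of airway and other epithelium.

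**Figure D1:**
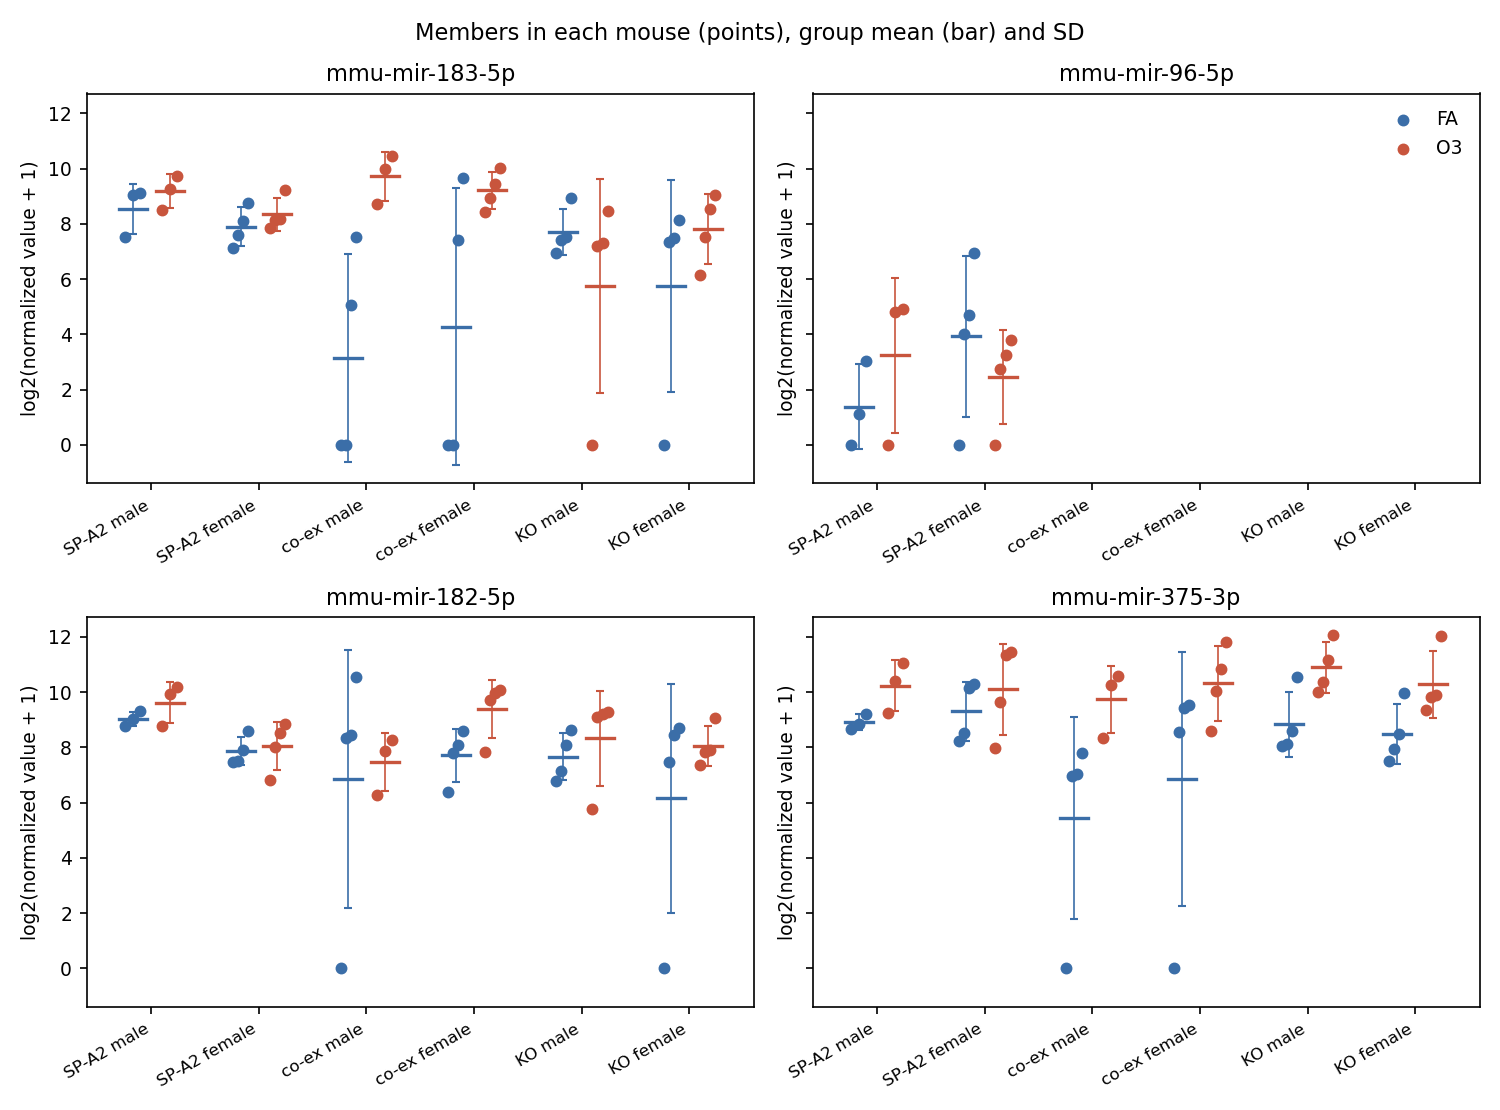
Normalized values of the 4 members on the log2(value + 1) axis, by genotype and sex, for FA (blue) and O3 (red), with each mouse as a point, the group mean as a bar and the SD as a whisker. Points at 0 are mice without a read. The O3 points lie above the FA points for miR-375-3p in SP-A2 males and co-ex males and for miR-183-5p in co-ex males. The share of all miRNAs that separate so was not computed.

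miR-375-3p was higher after O3 than after FA in the mean of all 6 tables. In SP-A2 males it was at 409.6, 459.5 and 598 after FA and at 602, 1349 and 2149.95 after O3. The groups did not overlap, and the lowest mouse after O3 was close to the highest after FA. The share of all miRNAs whose groups did not overlap was not computed for any table, so a lack of overlap only describes these mice. In co-ex males miR-375-3p was at 124, 129, 220.1 and 0 after FA and at 321, 1235 and 1551 after O3. These groups also did not overlap, and FA replicate 4, the mouse at 0, was among the 5 mice with many miRNAs at 0.

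In KO males miR-375-3p was at 279, 1501, 385 and 264 after FA and at 2271, 1021, 4327 and 1336 after O3. All FA mice but replicate 2 lay below every O3 mouse. In co-ex females it was at 679, 371, 736 and 0 after FA and at 383, 1057, 3590.4 and 1819 after O3, so that 3 of 4 mice after O3 exceeded every FA mouse.

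In SP-A2 females miR-375-3p was at 1142, 296, 1263 and 367 after FA and at 2614, 249, 2807 and 807 after O3. The spread within each exposure was as wide as the difference, with the lowest mouse of the table after O3. In KO females it was at 361, 1007, 179 and 245 after FA and at 4235, 914, 653 and 945 after O3, and a single mouse, O3 replicate 1, held the highest value.

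The ratio of the O3 mean to the FA mean of miR-375-3p was 2.80 for males and 2.11 for females of SP-A2. It was 8.76 and 3.83 for males and females of co-ex, and 3.69 and 3.76 for those of KO. In the fits of log2(normalized value + 1) with limma, the difference was between 0.81 and 4.29 on the log2 scale, and the adjusted p was between 0.133 and 0.881. The lowest was that of KO males, with a log2 difference of 2.07 (SE 0.65) and an adjusted p of 0.133. The unadjusted p was under 0.05 in 4 of the 6 tables, and the counts of such p over all miRNAs are given further on. The differences of 4.29 in co-ex males and 3.45 in co-ex females each rested on an FA mouse at 0. Without the 5 mice with many miRNAs at 0 they were 2.33 and 1.16, with an adjusted p of 0.991 and 0.701, and that of KO females was 1.62, with 0.671. The call depended on single mice: without KO male FA replicate 2 or O3 replicate 4, and in SP-A2 males without O3 replicate 1, miR-375-3p passed the FDR, with an adjusted p of 0.0219, 0.0649 and 0.0537.

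Over all 6 tables, fitted with the table as a factor, miR-375-3p was higher after O3 by 2.28 on the log2 scale (SE 0.57, 45 mice), a 4.86-fold difference, with an adjusted p of 0.00252 in limma. This passed the FDR of 0.1, as did 53 of the 206 miRNAs tested, or 25.7%, of which 42 were higher and 11 lower. The difference of miR-375-3p lay at the 91.7th percentile of all 206, whose median was 0.18. Without the 5 mice with many miRNAs at 0 it was 1.52, with an adjusted p of 0.000708.

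The O3 difference of miR-183-5p was largest in both tables of co-ex, although the difference between genotypes did not pass its own test, given further on. In co-ex males it was at 0, 32.5, 184 and 0 after FA and at 1017, 1393 and 419 after O3, so that each O3 mouse exceeded each FA mouse. In co-ex females it was at 0, 169, 817 and 0 after FA and at 492, 343, 1029 and 703 after O3. Here FA replicate 3 lay within the range after O3, and the other 3 FA mice lay below it. In both sexes of co-ex, 2 of the 4 FA mice had no read of miR-183-5p. Listed rows were nonzero in at least 3 mice in co-ex males and 4 in co-ex females. The O3 mice alone reached this for miR-183-5p and the FA mice alone did not. Its listing in co-ex thus came through the group where it was higher, and its difference there carries that selection.

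In SP-A2 males miR-183-5p was at 181, 523 and 548 after FA and at 619, 364 and 854 after O3, and in SP-A2 females at 432, 138, 193 and 275 after FA and at 229.8, 279, 595 and 287 after O3. The groups overlapped in both sexes. In KO males it was at 185, 483, 171 and 122 after FA and at 147, 159, 355 and 0 after O3, and it was the only member with a lower mean after O3 in KO. In KO females it was at 160.2, 280.1, 177 and 0 after FA and at 371, 184, 70.7 and 524 after O3.

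The ratio of the O3 mean to the FA mean was 17.4 in co-ex males, where the FA mean was 54.1 and the O3 mean 943, and 2.60 in co-ex females. It was 1.47 and 1.34 in SP-A2 males and females, and for KO it was 0.688 among males and 1.86 among females. The log2 differences in limma were 6.57 (SE 2.66) in co-ex males and 4.94 (SE 1.91) in co-ex females, with an adjusted p of 0.881 and 0.272, and each had an unadjusted p under 0.05. They were 3.42 and 3.51 without the 5 mice with many miRNAs at 0, with an adjusted p of 0.687 and 0.501. With single mice left out in co-ex females, the difference was between 3.51, without FA replicate 1 or 4, and 6.74, without FA replicate 3, where the adjusted p of 0.0856 passed the FDR. In the other 4 tables they were between -1.96 in KO males and 2.08 in KO females, with an adjusted p between 0.559 and 0.828. Both of these ends rested on a mouse at 0. Without KO male O3 replicate 4 the difference was -0.037, and without KO female FA replicate 4 it was 0.17. Over all 6 tables the difference was 2.07 (SE 0.82), with an adjusted p of 0.0664 in limma, which passed the FDR of 0.1. It was 0.81 with an adjusted p of 0.437 in edgeR and 0.81 with 0.284 in DESeq2 on recovered reads, neither of which passed. With a pseudocount of 0.1 it was 2.62, with an adjusted p of 0.105 in limma, and with the replicate number as a block 1.84, with 0.122, which ended the call in both. Without the 5 mice with many miRNAs at 0 the difference was 1.24, with an adjusted p of 0.0900. Leaving out any one of 7 mice ended the call, with an adjusted p of up to 0.121. They were FA replicate 1 and all 3 O3 mice of co-ex males, FA replicates 1 and 4 of co-ex females, and FA replicate 4 of KO females.

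miR-182-5p, from the same cluster, had a smaller limma difference over all 6 tables than miR-183-5p, at 0.97 against 2.07. The ratio of its means was not smaller in every table. It was 1.62 against 1.47 for miR-183-5p in SP-A2 males, 3.28 against 2.60 in co-ex females and 1.98 against 0.688 in KO males. In the other tables the ratio was lower for miR-182-5p. In co-ex males miR-182-5p was at 327, 1506, 348 and 0 after FA and at 231, 307 and 76.3 after O3, and its mean was lower after O3, with a ratio of 0.375. In these same mice the means of miR-183-5p and miR-375-3p were higher after O3. The FA mean of miR-182-5p rested largely on replicate 2, at 1506, and the other FA mice were at 327, 348 and 0. In co-ex females it was at 271, 221, 386 and 82.0 after FA and at 1003, 229, 1079 and 836 after O3, so that 3 of 4 mice after O3 exceeded every FA mouse, with a ratio of 3.28.

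In SP-A2 males miR-182-5p was at 432, 629 and 520.1 after FA and at 983, 432 and 1149.9 after O3, and in SP-A2 females at 181.7, 237, 177 and 386 after FA and at 362, 258, 462 and 113 after O3. In KO males it was at 393, 270.2, 140.3 and 108 after FA and at 592, 53.1, 549 and 615 after O3, and in KO females at 174, 345, 419 and 0 after FA and at 164, 532, 225 and 239 after O3. The groups overlapped in all 6 tables. The log2 difference in limma was between 0.18 and 1.89, with an adjusted p between 0.476 and 0.941, and the unadjusted p was under 0.05 in none. Over all 6 tables it was 0.97 (SE 0.57), with an interval of -0.18 to 2.11 and an adjusted p of 0.243, which did not pass. It was 0.13 without the 5 mice with many miRNAs at 0, with an adjusted p of 0.852. In co-ex males the sign of the log2 difference, 0.62, rested on the mouse at 0, and without FA replicate 4 it was -1.66. Without FA replicate 2, the mouse at 1506, it was 1.86, the highest value with 1 mouse left out. Without all 5 mice with many miRNAs at 0 the log2 difference was -2.04 and 1.24 for co-ex males and females, and 0.37 and -0.16 for those of KO. For co-ex males this left only FA replicates 2 and 3, at 1506 and 348, so the value of -2.04 leans on replicate 2.

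miR-96-5p was close to the limit of these libraries. In SP-A2 males it was at 0, 7.22 and 1.17 after FA and at 28.9, 27.0 and 0 after O3, and in SP-A2 females at 124, 0, 25.2 and 15.3 after FA and at 5.75, 13.0, 8.51 and 0 after O3. A value of 0 allows up to 3 reads, which in the 4 mice at 0 was a normalized value between 2.07 and 5.23. The log2 difference was 1.85 (SE 1.52) in males and -1.47 (SE 1.59) in females, with an adjusted p of 0.573 and 0.817 in limma, and neither passed.

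The opposite arm mmu-mir-183-3p (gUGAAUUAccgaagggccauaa, at chr6:30169672-30169693 on the minus strand) was at 1.74, 27.7 and 28.2 after FA and at 35.8, 6.57 and 13.2 after O3 in SP-A2 males. The values of SP-A2 females were 0, 0, 62.2 and 4.37 after FA and 34.5, 0, 13.2 and 0 after O3. Its means of 11.9 to 19.2 lay far below those of miR-183-5p in the same groups, between 259.6 and 613. The groups overlapped, and the log2 difference was 0.26 in males and 0.14 in females, with an adjusted p of 0.943 and 0.983 in limma.

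**Figure D2:**
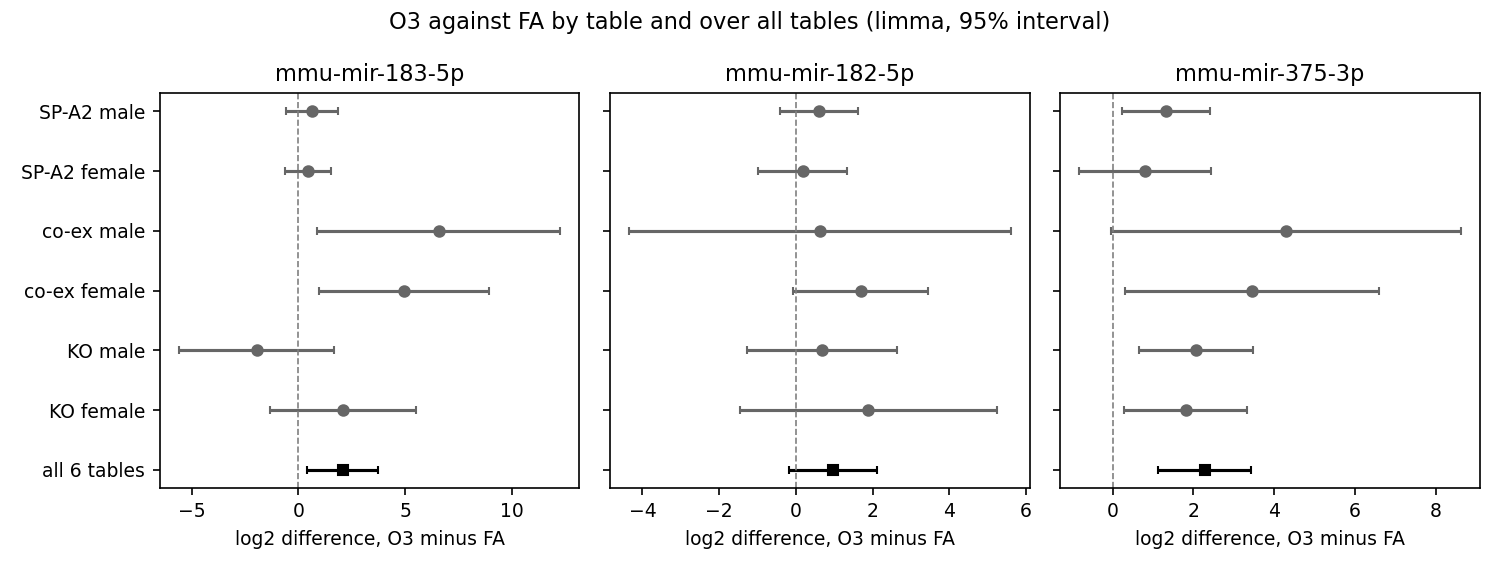
Log2 difference between O3 and FA for miR-183-5p, miR-182-5p and miR-375-3p in each table (circles) and over all 6 tables (squares), with the 95% interval from limma. The difference over all tables was 2.07, 0.97 and 2.28, and the widest intervals are those of co-ex males.

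Within single tables, limma called none of the members at the FDR of 0.1, for 20 member values in all, of which 6 had an unadjusted p under 0.05. Over all miRNAs such a p was found for 79 of 448 in SP-A2 males and 46 of 373 in SP-A2 females. It was found for 8 of 234 and 30 of 290 in co-ex males and females, and for 45 of 328 and 22 of 287 in those of KO. The same fits called 0.67% and 1.07% of all miRNAs in males and females of SP-A2, 0% and 1.38% in those of co-ex, and 5.18% and 0% in those of KO. On recovered reads edgeR called no member, and DESeq2 called miR-375-3p in SP-A2 males, with a log2 difference of 1.40 and an adjusted p of 0.0806. The median log2 difference over all miRNAs of a table was between -0.29 in KO males and 0.64 in co-ex males.

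miR-96-5p was at 0 in 2 of 7 FA mice and in 2 of 7 O3 mice of SP-A2. The mice without a read of one of the other 3 members were mostly FA mice. miR-183-5p was at 0 in 5 of 23 FA mice and in 1 of 22 O3 mice, and miR-182-5p and miR-375-3p were each at 0 in 2 FA mice and in no O3 mouse. All of these but co-ex female FA replicate 1 were mice with many miRNAs at 0, which were FA mice except KO male O3 replicate 4. Co-ex male FA replicate 4 had no read of any of the 3, although 1300004 reads were listed for it, and it had the most shared miRNAs at 0 of all mice, with 72 of 206. Of the 61 miRNAs of that table within 2-fold of the level of miR-183-5p, 29 were at 0 in this mouse. In co-ex female FA replicate 1, by contrast, only 1 of 53 miRNAs within 2-fold of its level was at 0. In co-ex female FA replicate 4 it was 9 of 53. Fewer cells of a type and less RNA of a miRNA per cell cannot be told apart in these samples.

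The response to O3 was compared between sexes and between genotypes by the interaction term itself. None of the 28 member values in 9 comparisons passed the FDR of 0.1 in limma, edgeR or DESeq2, and 2 had an unadjusted p under 0.05 in limma. These comparisons called 0.282% of all miRNAs between the sexes of SP-A2, 0.312% between SP-A2 and KO males, and 0% in the other 7. The largest differences were those of miR-183-5p. Its response was higher in co-ex males than in KO males by 8.52 (SE 2.94, adjusted p = 0.555 in limma). It was lower in SP-A2 than in co-ex by 5.94 (SE 2.41) in males and by 4.49 (SE 2.21) in females, with an adjusted p of 0.837 and 0.833. Without the 5 mice with many miRNAs at 0 these 3 differences were 3.46, -2.79 and -3.07, with an adjusted p of 0.473, 0.597 and 0.906.

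Levels were compared on recovered reads with edgeR. In CPM, miR-183-5p was highest in co-ex males after O3, at 751 ± 239 (SD, n = 3), and lowest in co-ex males after FA, at 36.6 ± 52.3 (SD, n = 4). miR-375-3p was highest in KO males after O3, at 2486 ± 1418 (SD, n = 4), and lowest in co-ex males after FA, at 99.3 ± 66.6 (SD, n = 4). Of the 12 groups, the 5 highest for miR-375-3p were O3 groups, and the remaining O3 group, that of co-ex males, was the 7th. miR-182-5p was highest in SP-A2 males after O3, at 980.3 ± 534 (SD, n = 3), and lowest in co-ex males after O3, at 161 ± 63.6 (SD, n = 3). No group differed from its neighbour in the order by more than the SD of both, for any member.

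Between males and females and between genotypes, none of the 36 member values in 12 comparisons passed the FDR of 0.1 in edgeR, with 1 at an unadjusted p under 0.05, and DESeq2 called 1. In the comparison of that value, co-ex against KO males after FA, 41 of the 206 miRNAs had an unadjusted p under 0.05 in edgeR. The value was that of miR-375-3p, lower in co-ex by 2.54 on the log2 scale, with an adjusted p of 0.175. In DESeq2 it was -2.37 with an adjusted p of 0.0824, which passed, and without the mice with many miRNAs at 0 it was -1.87 in edgeR with 0.233. In that same comparison miR-182-5p was higher in co-ex by 1.24 with an adjusted p of 0.565, and without these mice by 2.09 with 0.0858, which passed. Without co-ex male FA replicate 2 alone it was -0.23. In the comparison of SP-A2 with co-ex males after FA, miR-183-5p was higher in SP-A2 by 2.97 and miR-375-3p by 2.09, with an adjusted p of 0.213 and 0.231. Without the mice with many miRNAs at 0 these were 1.98 and 1.41, with 0.271 and 0.350. Without co-ex male FA replicate 3, miR-183-5p was higher by 4.83 with an adjusted p of 0.0736. miR-375-3p was lower in co-ex males than co-ex females after FA by 2.02, with an adjusted p of 0.501, and without these mice by 1.76, with 0.395. These comparisons called 20.4% of the 206 miRNAs between SP-A2 and co-ex males, 5.83% between co-ex and KO males, and 1.46% between SP-A2 and KO males. In females the shares were 1.94% between SP-A2 and co-ex, 2.43% between SP-A2 and KO and 0% between co-ex and KO. Between the sexes the share was 0.485% in SP-A2 after FA and 0% in the other 5 comparisons.

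In the ratio of 2 members within a mouse the factor of that mouse cancels, except where a value is low or 0 and the pseudocount of 1 added to both sets the ratio. In co-ex males the log2 ratio of miR-183-5p to miR-182-5p was 2.25 ± 0.17 (SD, n = 3) after O3 and -3.69 ± 3.93 (SD, n = 4) after FA. Of these FA mice, replicate 4 had no read of either miRNA, so that its ratio of 0 comes from the pseudocount alone, and replicate 1 had no read of miR-183-5p. With them the groups did not overlap, and the difference of 5.94 had a two-sided exact permutation p of 0.0857, or 0.600 adjusted over 14 ratios and tables. Without these 2 mice it was 5.46, with an exact permutation p of 0.1, the smallest possible for the mice left. In the other 5 tables the groups overlapped. Over all 6 tables this ratio was higher after O3 by 1.18 on the log2 scale, with a permutation p of 0.1498 from 100000 resamples within tables, or 0.225 adjusted over the 3 ratios. Without the 5 mice with many miRNAs at 0 the difference was 1.33, with an unadjusted permutation p of 0.0437, and without KO male O3 replicate 4 alone it was 1.55, with 0.0276. Over the mice with reads of both it was 0.86, with 0.135.

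The log2 ratio of miR-375-3p to miR-182-5p was higher after O3 by 1.35 over all 6 tables, in 5 of 6 tables, with a permutation p of 0.0264, or 0.0791 adjusted over the 3 ratios. In co-ex males it was -1.40 ± 1.53 (SD, n = 4) after FA and 2.27 ± 1.94 (SD, n = 3) after O3, with an exact permutation p of 0.0286, the smallest possible here, or 0.400 adjusted. Without FA replicate 4, which had no read of either miRNA, the difference of 3.67 became 4.13. Its exact permutation p of 0.1 was the smallest possible with 3 mice in each group. Without FA replicate 1 as well the difference was 4.36, with 0.2, where the p cannot be under 0.1 either. The unadjusted permutation p over all tables was no longer under 0.05 with a pseudocount of 0.1, at 0.0758. Without the 5 mice with many miRNAs at 0 the difference over all tables was 1.55, with an unadjusted permutation p of 0.00422. With 1 mouse left out, the unadjusted p was not under 0.05 without co-ex female FA replicate 4, KO female FA replicate 3 or KO female O3 replicate 1. The log2 ratio of miR-96-5p to miR-182-5p differed by -0.20 over both SP-A2 tables, with a permutation p of 0.882. It was between -10.2 and -0.55 in the 14 mice.

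**Figure D3:**
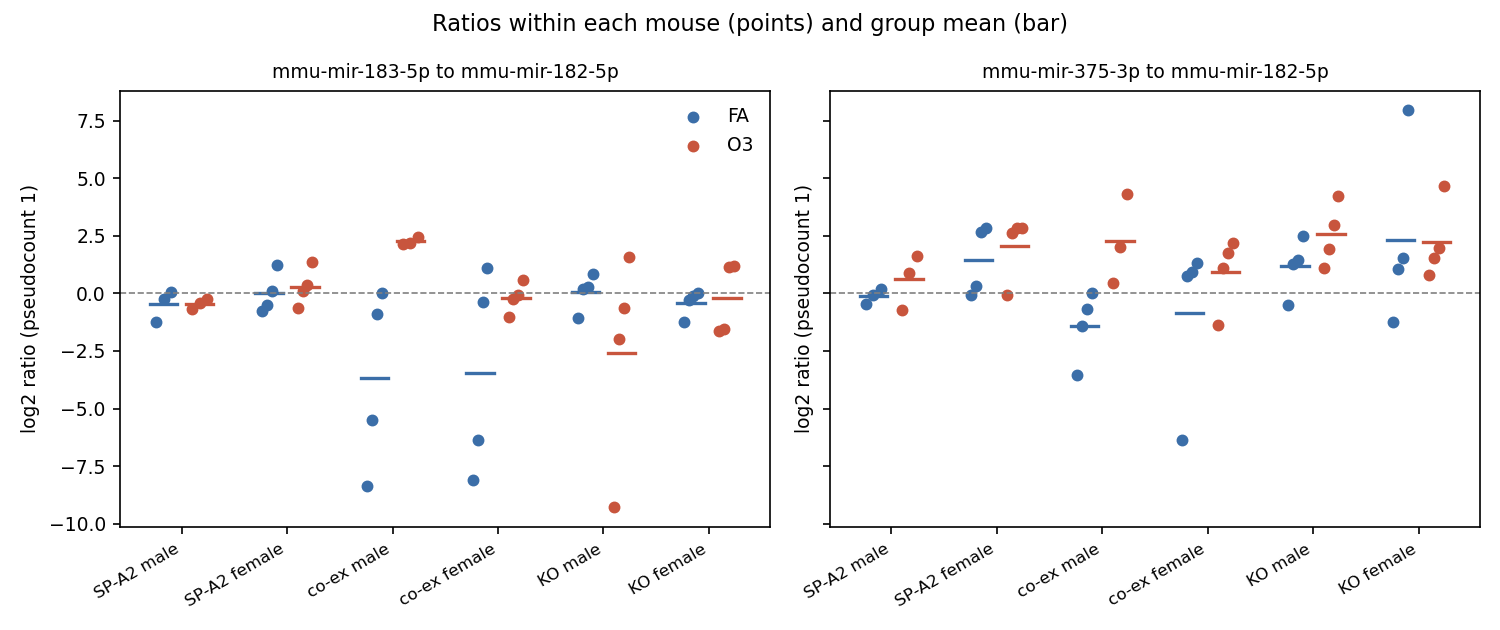
Log2 ratio of miR-183-5p to miR-182-5p and of miR-375-3p to miR-182-5p in each mouse (points) with the group mean (bars), by genotype and sex, for FA (blue) and O3 (red). In co-ex males the O3 mice lie above the FA mice in both panels, and the lowest points are mice without a read of the first miRNA.

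Lists of miRNAs of other cell types were set beside the members. Of the 11 miRNAs of airway and other epithelium, such as those of the miR-200 family, 6 were listed in all tables, of which limma called 5 higher and none lower over the 45 mice. Their median log2 difference was 1.44, against 0.18 for all 206 miRNAs. Of the 10 miRNAs of the mesenchymal list, 7 were listed in all tables and each of the 7 was called higher, with a median of 2.62. They were miR-143-3p, miR-145a-5p, miR-214-3p, miR-10a-5p, miR-99a-5p, miR-100-5p and miR-125b-5p. The 7 miRNAs of macrophages and other leukocytes had a median of -0.35, and none was called. Neither the 2 erythroid miRNAs listed in all tables nor the lymphoid miR-150-5p were called, with medians of 0.29 and 0.33. The endothelial miR-126a arms were not in all tables, and together they took at most 0.107% of the reads of a mouse, with a median of 0%. Their share was higher in each O3 mouse than in each FA mouse in both tables of SP-A2. Their log2 differences were 2.40 and 4.78 in SP-A2 males, of which limma called 1, and 5.37 in SP-A2 females and 6.09 in KO males, where 1 arm was listed and not called.

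By share of reads, epithelial miRNAs took a median of 0.607% after FA and 1.01% after O3, with 0.0975% to 1.18% and 0.531% to 2.14% over mice. Mesenchymal miRNAs took 0.416% and 1.25%, with 0.0831% to 0.783% and 0.413% to 2.57%. Leukocyte miRNAs took 10.5% and 7.04%, with 0.986% to 24.5% and 1.30% to 22.0%, and in SP-A2 males their share was lower in each O3 mouse than in each FA mouse. In each table of SP-A2, 1 of the 7 was called lower and none higher. Erythroid miRNAs took 3.10% and 4.46%, with groups that overlapped in all tables. The members took 0.111% and 0.226%, with 0% to 0.258% and 0.111% to 0.627%. The share of the epithelial list was higher in each O3 mouse than in each FA mouse in SP-A2 males and co-ex females, and that of the mesenchymal list in all tables but that of KO females. The share of the members was so in SP-A2 males. The highest of the epithelial list was miR-200c-3p in every table. That of the mesenchymal list was miR-125b-5p in every table but that of SP-A2 males, where it was miR-143-3p. The members are also expressed in epithelia, and the part of other cells in their differences was not tested.

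**Figure D4:**
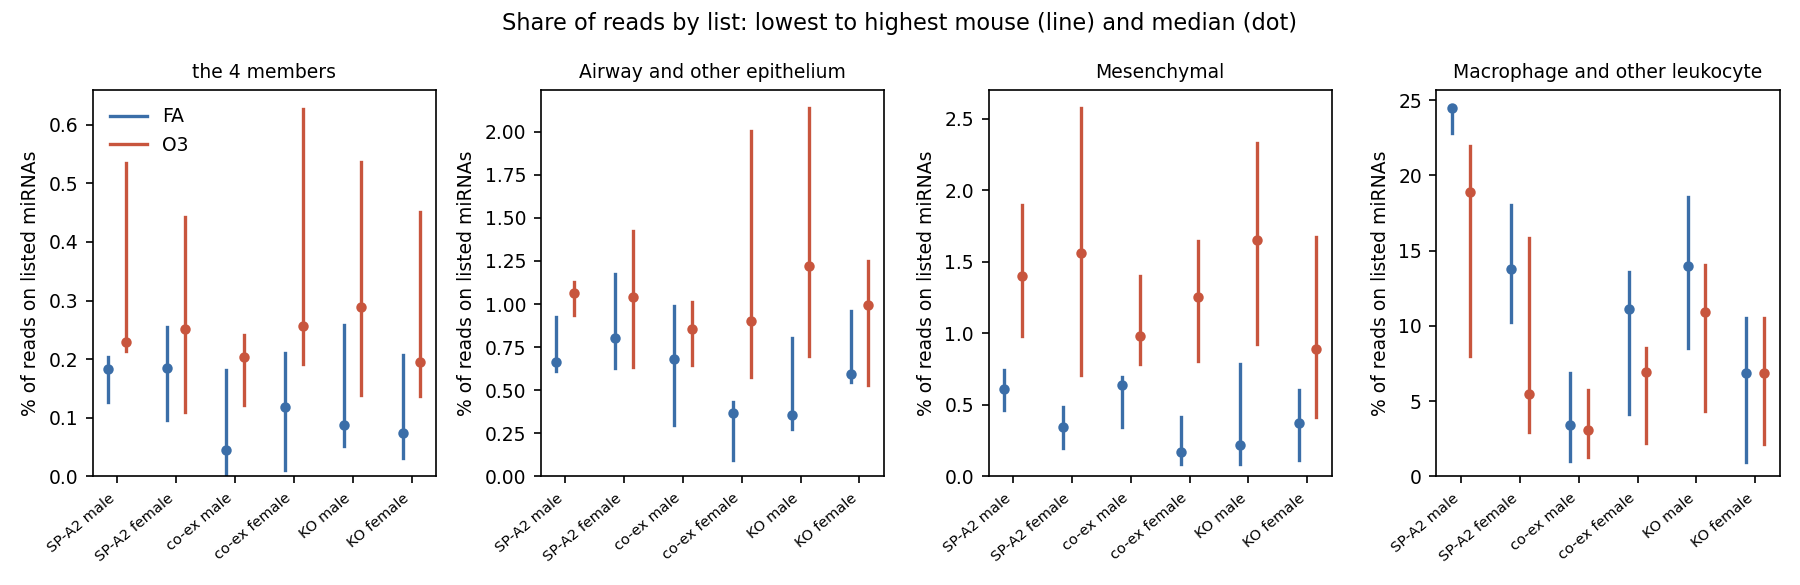
Share of reads on listed miRNAs taken by the 4 members and by the epithelial, mesenchymal and leukocyte lists, by genotype and sex, for FA (blue) and O3 (red), as the range over mice (line) and the median (dot). The medians of the members and of the epithelial and mesenchymal lists were higher after O3 in each of the 6 tables.

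The variation between mice of the same group was used to find the miRNAs with the most similar pattern. After the mean of each of the 12 groups was subtracted, Pearson's r over the 45 mice was computed with 201 other miRNAs of at least 10 in mean normalized value. The miRNAs of a mouse share its library and its read depth, and depth differed between mice, so these values are a description. For miR-375-3p the highest r were those of miR-200c-3p (0.77), an epithelial miRNA, of miR-5100 (0.76) and of miR-34b-3p (0.73), from a cluster of multiciliated cells. For miR-183-5p they were those of miR-676-3p (0.68), miR-1981-5p (0.67) and miR-200a-3p (0.64), the last of the miR-200 family. For miR-182-5p they were those of miR-10a-5p (0.84), of the mesenchymal list, of miR-142a-5p (0.79), of the leukocyte list, and of miR-24-2-5p (0.70).

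Much of this likeness rested on the 5 mice with many miRNAs at 0. In the other 40 mice r fell to 0.63 for miR-200c-3p and was 0.82 for miR-34b-3p, both with miR-375-3p, while miR-5100 was at 0.27. It was 0.40, 0.0017 and 0.25 for the 3 miRNAs most like miR-183-5p, and 0.27, 0.20 and 0.14 for those most like miR-182-5p. Other miRNAs were the most similar in these 40 mice, and they were named once their values were seen. After miR-34b-3p, those of miR-375-3p were miR-92b-3p (0.79) and miR-2137 (0.66), both above miR-200c-3p. For miR-183-5p the highest r was that of miR-31-5p (0.58), and for miR-182-5p that of miR-30a-3p (0.69). The members were not among each other's 3 most similar miRNAs. The r of miR-183-5p with miR-182-5p was 0.49 in 45 mice and 0.15 in 40, although both come from one cluster. It was 0.47 and 0.22 for miR-183-5p with miR-375-3p, and 0.49 and 0.098 for miR-182-5p with miR-375-3p.

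**Figure D5:**
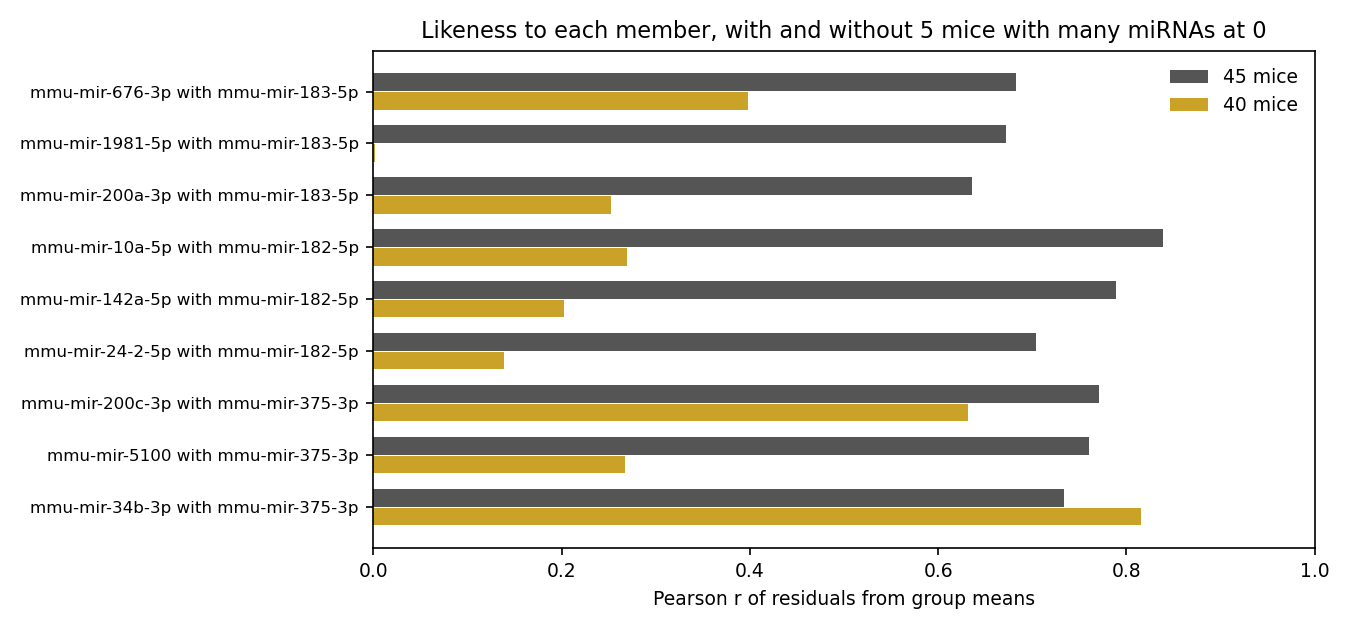
Pearson's r between residuals from the group means for each member and its 3 most similar miRNAs, over 45 mice (grey) and over the 40 mice left without those with many miRNAs at 0 (yellow). The r of miR-34b-3p and miR-200c-3p with miR-375-3p stayed at 0.82 and 0.63, and the other 7 were at most 0.40.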

How the data were processed

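Per genotype and sex, the authors deposited 1 table that holds a normalized signal per miRNA and mouse (reads divided by a factor of that mouse) and columns of their own p-value, q-value and rank for FA against O3, which were not used. The AM libraries were made with the NEXTflex Small RNA kit and sequenced on an Illumina HiSeq. The paper names edgeR and TCC 1.14.0, and the submitters' processing notes name CASAVA and edgeR. The aligner, the miRNA reference and the genome build are not given in the sources used here. All values of all 45 mice were whole multiples of 1 step per mouse (tolerance 1e-05 reads), which gave back reads; in 8 mice at least 100 values lay within 20 steps, a strict test. Read totals cover listed miRNAs, not the library, and floors of 3 reads cover counting error only.

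O3 was compared with FA by limma 3.58.1 (R 4.3.3, trend) on log2(normalized value + 1) within each table and, with the table as a factor, over the 206 shared miRNAs, with Benjamini-Hochberg adjustment over all miRNAs and the FDR of 0.1 of the study. Fold changes are on this scale, which understates those of low miRNAs and, where mice of 1 group are at 0, can exceed the ratio of means. Responses were compared by limma interactions, levels by edgeR 4.0.16 (TMM, quasi-likelihood) on recovered reads, and ratios by two-sided permutation tests. As alternatives, the pseudocount was set to 0.1 or 10, with a low-value filter, median-ratio rescaling, an FDR of 0.05, a replicate block, edgeR or DESeq2 1.42.0 and each mouse left out; leaving out the 5 mice with over 20% of shared miRNAs at 0 was added once the values were known. The fits were run on simulated reads with large planted changes and a small spread between mice. This does not show how they behave at the wider spread of these mice. The named miRNAs are the members, the other arms of their hairpins and the 3 most similar miRNAs per member, and between sexes and genotypes members with an unadjusted p under 0.1 or called under an alternative, a rule set once the values were known. Members and lists were chosen with earlier results of these data known. No pair of mice of a group repeated the same library, with Spearman's correlation of at most 0.907 over 63 pairs.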

Additional observations from a re-analysis of the deposited data

Results flagged for a closer look

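Within groups of 4 mice, 4 values in 4 mice lay apart from the rest of their group by a gap of more than Dixon's 95% limit relative to the range, of 29 groups examined, where chance gives about 1 in 20. miR-183-5p was at 595 in SP-A2 female O3 replicate 3, against 229.8 to 287 in the other mice of the group. miR-182-5p was at 53.1 in KO male O3 replicate 2, against 549 to 615. miR-375-3p was at 1501 in KO male FA replicate 2, against 264 to 385, and at 4235 in KO female O3 replicate 1, against 653 to 945. None of the 4 mice was among the 5 with many miRNAs at 0.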

How the results depend on the processing

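Of 1455 values under alternatives for 85 results, 1355 kept their direction and their side of the threshold, and for correlations their size. For the ratios in SP-A2 males that side was fixed, as the smallest possible exact permutation p there is 0.1. It was also fixed in co-ex males with 1 mouse left out, where no exact permutation p can be under 0.0667. All 7 such fits of miR-375-3p to miR-182-5p therefore changed side whatever their values. miR-375-3p over all tables passed in each alternative, with a log2 difference between 1.52 and 2.56 and, with each mouse left out, between 1.89 and 2.43. miR-183-5p over all tables no longer passed with a pseudocount of 0.1 (2.62), in edgeR (0.81), in DESeq2 (0.81) or at an FDR of 0.05 (2.07), which leaves 1 of 2 members called. With each mouse left out it was between 1.77 and 2.48, with 1 to 2 members called.

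Whether the replicate numbers pair the mice is not known. Of 22 pairs with the same number, 6 had a correlation of deviations over 0.1, with values between -0.14 and 0.27. Mice with different numbers were not compared in this way, so these values cannot decide it. With the replicate number as a block, miR-183-5p over all tables was at 1.84 (adjusted p = 0.122) and no longer passed, with 1 member called. miR-375-3p in KO males passed, with 1 member called, and miR-182-5p in co-ex males was at -1.66. In co-ex males the block sets FA replicate 4, which has no O3 partner, aside. The block changed no other call.

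Within tables, 1 member was called by DESeq2 among SP-A2 males, and 1 among KO males without the 5 mice with many miRNAs at 0. Between co-ex and KO males after FA, 1 was called by DESeq2 and 1 without these mice. With each mouse left out, 0 to 1 members were called in SP-A2 males, co-ex females and KO males, and between SP-A2 and co-ex males after FA. miR-182-5p in co-ex males was at -0.14 with a pseudocount of 10, -1.52 in edgeR, -1.77 in DESeq2 and -2.04 without the 5 mice, and between -1.66 and 1.86 with each mouse left out. In KO females it was at -0.16 without these mice and between -0.16 and 2.74 with each mouse left out, and in SP-A2 females between -0.088 and 0.59. Its level in co-ex against KO males after FA was between -0.23 and 1.72.

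The log2 ratio of miR-183-5p to miR-182-5p over all tables had an unadjusted permutation p under 0.05 without the 5 mice (1.33). The ratio was between 0.92 and 1.55 with each mouse left out. In co-ex females it was -0.54 in mice with both nonzero. With each mouse left out it was between -0.35 and 0.31 in SP-A2 males, -0.085 and 0.67 in SP-A2 females, and -0.27 and 0.67 in KO females. The ratio of miR-375-3p to miR-182-5p over all tables was 1.35 with a pseudocount of 0.1 and between 1.04 and 1.66 with each mouse left out. In co-ex females it was -0.082 in mice with both nonzero and without the 5 mice, and between -0.082 and 2.53 with each mouse left out. In KO females it was 0.70 with a pseudocount of 10, 0.036 on recovered reads, and 1.79 in mice with both nonzero and without the 5 mice, and between -1.27 and 1.79 with each mouse left out. The ratio of miR-96-5p to miR-182-5p was 0.017 in mice with both nonzero and between -0.85 and 0.75 with each mouse left out. The cause of these changes was not tested, beyond the mice left out. miR-96-5p had the fewest reads of the members, with a median of 6.5.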
